A study of Mus musculus with 12 samples.

Results

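Chemokine ligands and their receptors were followed across 12 RNA libraries from mouse tumours of head and neck squamous cell carcinoma. The genes were chosen by symbol alone: every gene named Ccl, Cxcl, Ccr or Cxcr with a number, plus Xcl1, Xcr1, Cx3cl1 and Cx3cr1. The rule found 63 of the 55487 gene identifiers in the deposited count table, 45 of them ligands and 18 receptors, under 58 symbols. It leaves out chemokines with other names (Pf4, Ppbp) and the atypical receptors (the Ackr genes and Ccrl2). The tumours came from Sq-1979, a mouse squamous carcinoma line, injected subcutaneously in Matrigel into male C3H/HeN mice aged 6 weeks, so all 4 groups share the line, the strain and the site. From 20 days after implantation the mice received vehicle, regorafenib at 5 mg/kg/day, anti-PD1, or both agents (the combination). The labels describe dosing as a daily oral gavage for every arm and give no dose for the antibody. Regorafenib is an oral inhibitor of several kinases, among them VEGF receptors, and anti-PD1 is an antibody that blocks an inhibitory receptor of T cells. Each group has 3 libraries. Nothing in the labels ties each library to a mouse of its own, so the p-values measure only the spread between these samples.

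Chemokines are small secreted proteins that bind G-protein-coupled receptors on leukocytes and draw the cells along a gradient. Most receptors bind several ligands and many ligands bind several receptors, so ligands and receptors are described here by axis. In tumours, CXCR3 and its interferon-induced ligands are known for the recruitment of T cells and NK cells, CCR2 and its ligands for monocytes, and CXCR2 and its ligands for neutrophils.

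Libraries held 22591835 to 28209036 counts. Markers of squamous tumour cells (6 of 6 tested, among them Krt5 and Trp63) summed to 13115 to 15458 CPM (counts scaled to library size with TMM factors) with vehicle and to 10507 to 13671 CPM in the treated libraries. Leukocyte markers differed between libraries of the same group. The summed level of 5 leukocyte genes (Ptprc, Coro1a, Laptm5, Cd53 and Lcp1, none at 0) was 446, 391 and 395 CPM with vehicle, 453, 381 and 943 CPM with anti-PD1, 728, 916 and 313 CPM with regorafenib and 298, 471 and 778 CPM with the combination. So 4 libraries (anti-PD1 3, regorafenib 1, regorafenib 2 and combination 3) lay between 728 and 943 CPM, and the other 8 between 298 and 471 CPM. In bulk tumour RNA, fewer cells of a type and less RNA per cell cannot be told apart. Fibroblast markers (6 of 6 tested) also split within groups, at 31237, 22997 and 29626 CPM with vehicle, 5732, 28823 and 31276 CPM with anti-PD1, 10258, 28601 and 4888 CPM with regorafenib and 5229.7, 4096 and 11965 CPM with the combination.

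Of the 63 identifiers, 12 had no count in any library. Of those, 11 were copies under the symbols Ccl19, Ccl21a, Ccl21b, Ccl21c, Ccl27 and Ccl27b, from a duplicated region of chromosome 4 and unplaced scaffolds (7 identifiers lie on scaffolds). Near-identical copies there share reads, so these levels are uncertain. The remaining identifier was Ccl26. Ccl28 and Ccr10 (the mucosal and skin-homing pair), Cxcl15 and Cxcr1 had counts, at most 7 in a library, and did not pass the filter on low counts. The other 47, 31 ligands and 16 receptors, were among the 16974 genes tested.

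By level per exonic kilobase (mean RPKM over the 12 libraries), the most abundant ligands were Ccl8 (134 RPKM) and Ccl11 (74.2), an eosinophil attractant, followed by Cxcl16 (61.4), Cxcl10 (59.6), Cxcl9 (38.4), Ccl5 (30.04) and Cx3cl1 (27.6). The receptors were lower. Cx3cr1 (8.28 RPKM) and Cxcr6 (8.14) led them, ahead of Cxcr4 (7.26), Ccr1 (7.22) and Ccr7 (6.63), and Ccr3 (0.0832) was last of the receptors tested. These are levels, not differences, and for most genes neighbours in the order overlapped across libraries, since the highest library of a gene exceeded its lowest by 1.69-fold (Ccr1) to 68.8-fold (Cxcl3), with a median of 5.65-fold.

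**Figure D1:**
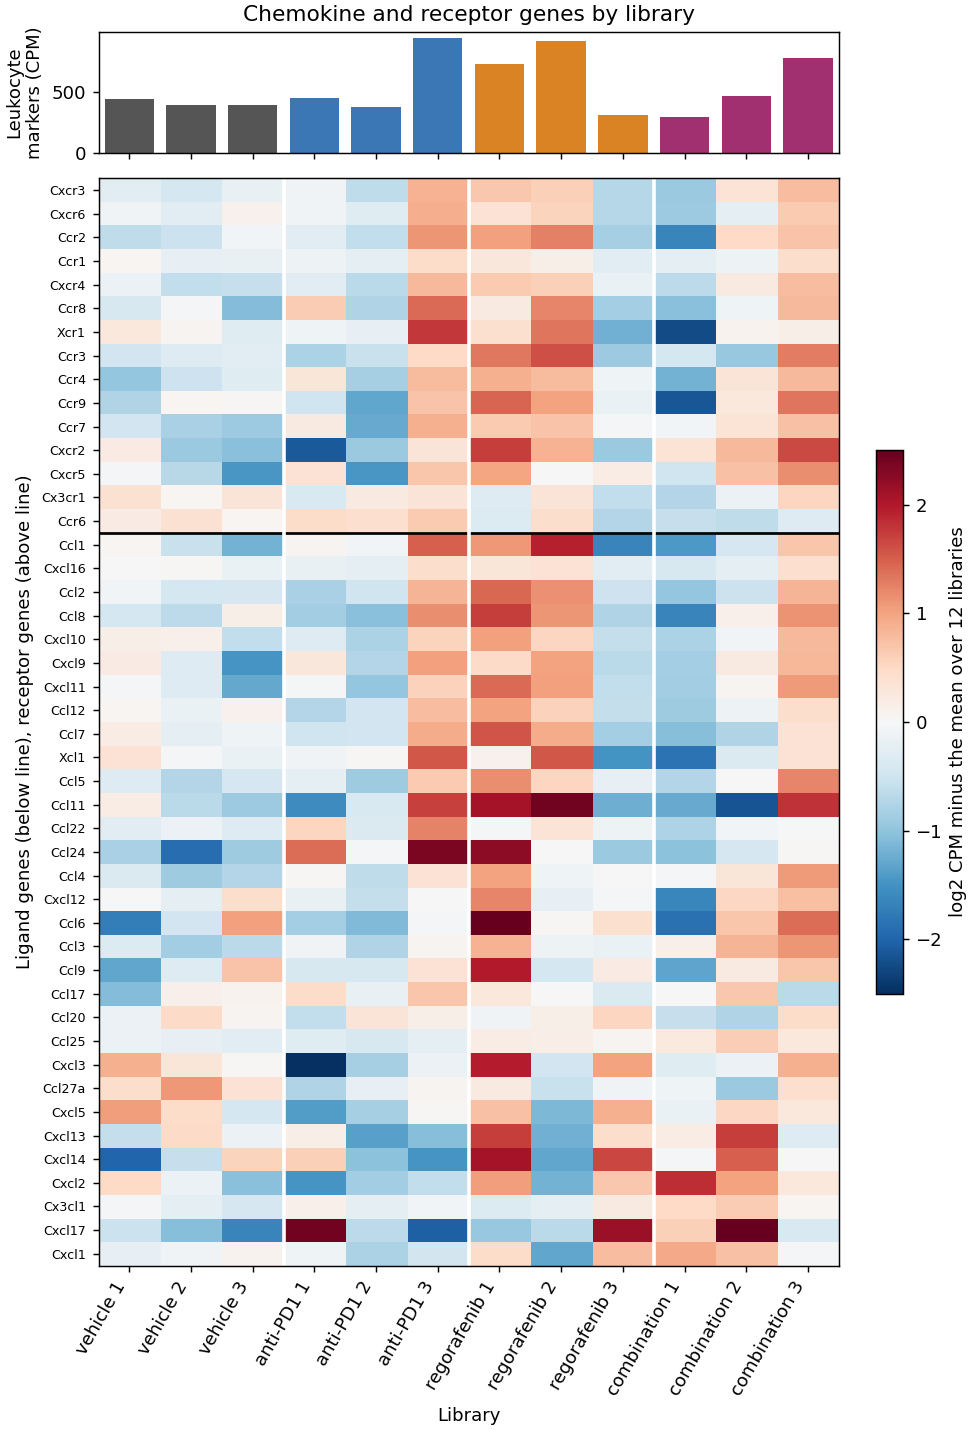
Rows are 46 of the 47 tested genes (receptors above the black line, ligands below) and columns are the 12 libraries; colour is log2 CPM minus the gene's mean over libraries. The bars on top give the summed leukocyte markers in CPM, and most rows are reddest in the 4 libraries whose bars lie between 728 and 943 CPM.

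Most chemokine genes were highest in a leukocyte-rich library. The highest library was one of the 4 leukocyte-rich libraries for 39 of the 47 genes (83.0%), for 16 of 16 receptors and for 23 of 31 ligands, against 35.7% of all genes tested. The library combination 1, with the lowest leukocyte level, was lowest for 18 genes.

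Regorafenib was first compared as an average over both backgrounds: with and without the antibody, 6 libraries against 6. Ccl25 and Ccl3 were higher with regorafenib, and no gene of the 47 was called lower. Ccl25 binds Ccr9 and is known for guiding lymphocytes to thymus and gut, and Ccl3 (MIP-1alpha) attracts monocytes and T cells, with Ccr1 among its receptors. A call means an adjusted p under 0.05 in edgeR's quasi-likelihood test (Benjamini-Hochberg over 16974 genes). These 2 calls are 2 of 47, where 9.49% of all genes tested were called (6.16% higher and 3.32% lower). The 47 log2 fold changes had a median of 0.51 and 38 were positive (80.9%, against 50.5% of all genes), while the median over all genes was 0.0030.

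Some markers of vascular, stromal and tumour cells were lower in the same comparison. edgeR called 3 of 6 endothelial markers lower, Emcn (log2 fold change -0.99, SE 0.14, adjusted p = 0.00581), Cldn5 (log2 fold change -0.95, SE 0.18, adjusted p = 0.0139) and Tie1 (log2 fold change -0.49, SE 0.11, adjusted p = 0.0245), with 2 of 5 pericyte markers (Abcc9 and Kcnj8), 1 of 6 fibroblast markers (Lum) and 1 of 6 squamous markers (Krt14). None of these lists had a marker called higher or at 0 in all libraries. All 6 endothelial and all 6 fibroblast differences were negative. Of the 5 pericyte markers 1 was positive, with an unadjusted p under 0.05 in edgeR. Of the 6 squamous markers 2 were positive, and their median log2 fold change was -0.048. The endothelial markers summed to 86.8 to 102 CPM with vehicle, 83.3 to 114 with anti-PD1, 65.1 to 86.9 with regorafenib and 50.5 to 89.5 with the combination. The pericyte markers summed to 189 to 206 CPM with vehicle, 103 to 209 with anti-PD1, 79.3 to 197 with regorafenib and 93.1 to 144 with the combination. The part of these cells in the chemokine differences was not tested.

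Ccl25 measured 7.93, 7.56 and 7.17 CPM with vehicle, 7.09, 6.64 and 7.40 CPM with anti-PD1, 10.02, 9.89 and 9.23 CPM with regorafenib and 10.4, 13.5 and 10.5 CPM with the combination. All 6 libraries with regorafenib were above all 6 without it, which held for no other gene of the 47 (2.13%) and for 4.64% of all genes. Its average difference was 1.45-fold (log2 fold change 0.53, SE 0.094, adjusted p = 0.0117), and the call held in the 12 fits that each left out 1 library. Ccl25 lies at chr8:4325210-4360020 (GRCm38, GENCODE M21, plus strand). It shares 204 of its 7445 exonic bases with Elavl1, an RNA-binding protein gene on the opposite strand, and how reads were assigned by strand is not given in the sources used here. Elavl1 ranged from 82.8 to 112.6 CPM and differed by a log2 fold change of 0.044 (adjusted p = 0.681, edgeR). Of 10 annotated Ccl25 transcripts, 7 start within 100 bases of the gene start beside Elavl1 and 6 are not protein coding. Gene counts do not separate them.

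Ccl3 measured 2.14, 1.48 and 1.70 CPM with vehicle, 2.59, 1.61 and 2.87 CPM with anti-PD1, 5.12, 2.51 and 2.44 CPM with regorafenib and 3.005, 5.01 and 6.01 CPM with the combination. Every regorafenib and combination library exceeded every vehicle library, though not every anti-PD1 library. The average difference (log2 fold change 0.95, SE 0.26, adjusted p = 0.0453) was close to the threshold: the call was lost without any 1 of the vehicle or anti-PD1 libraries, and without regorafenib 1, combination 2 or combination 3 (adjusted p up to 0.115). In those fits 460 to 2048 genes were called in all, against 1610 in the full fit. Its neighbour Ccl4 (MIP-1beta), an attractant of monocytes and T cells, had group means of 2.51 ± 0.498 CPM (SD, n = 3) with vehicle, 3.90 ± 1.29 CPM with anti-PD1, 5.27 ± 2.47 CPM with regorafenib and 5.74 ± 2.36 CPM with the combination. It was not called (log2 fold change 0.81, SE 0.28, adjusted p = 0.0868). Other genes near the threshold were Ccr6 (log2 fold change -0.70, SE 0.20, adjusted p = 0.0537), Cxcl2 (log2 fold change 1.42, SE 0.44, adjusted p = 0.0697) and Cxcr2 (log2 fold change 1.55, SE 0.53, adjusted p = 0.0894). After Ccr6, the lower genes with the smallest p were Ccl27a, a skin chemokine (log2 fold change -0.33, SE 0.28, adjusted p = 0.484), and Ccl22, a ligand of Ccr4 (log2 fold change -0.28, SE 0.24, adjusted p = 0.497).

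**Figure D2:**
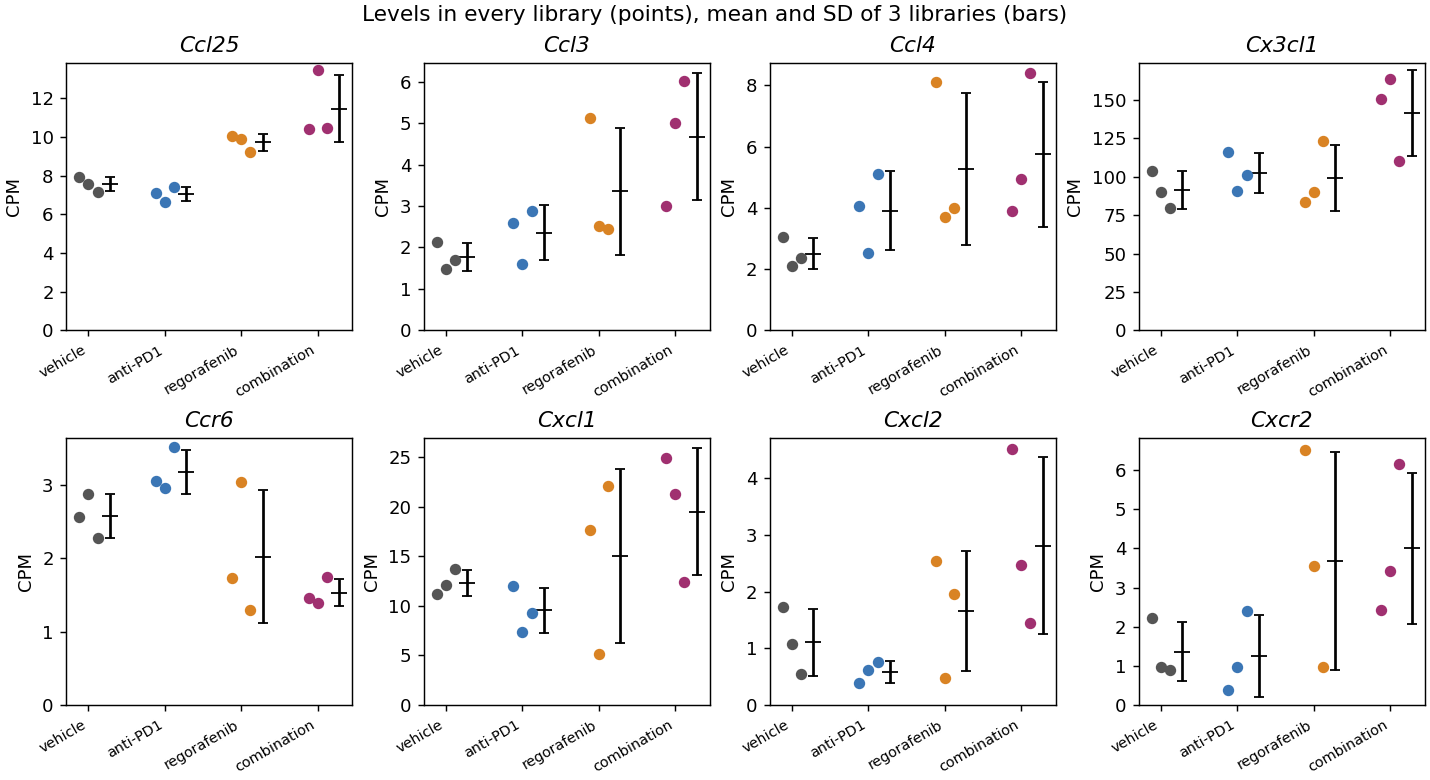
Points are CPM in each of 3 libraries per group and bars are the group mean with its SD, each panel on a linear axis from 0. Ccl25 is the only one of the 8 genes whose 6 libraries with regorafenib all lie above the 6 without it.

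The same pair was higher with the combination than with vehicle. Ccl25 (log2 fold change 0.60, SE 0.13, adjusted p = 0.0303) and Ccl3 (log2 fold change 1.40, SE 0.37, adjusted p = 0.0471) were called higher and none lower, 2 of 47 against 7.34% of all genes (5.03% higher and 2.32% lower). The membrane-anchored Cx3cl1 (fractalkine) was next (log2 fold change 0.63, SE 0.18, adjusted p = 0.0613). At the other end stood Ccr6 (log2 fold change -0.75, SE 0.29, adjusted p = 0.128), Ccl27a (log2 fold change -0.81, SE 0.39, adjusted p = 0.205) and Ccl20 (log2 fold change -0.36, SE 0.39, adjusted p = 0.588). The median was 0.57 and 36 of 47 values were positive (76.6%, against 51.8% of all genes), against a median of 0.016 over all genes. Groups did not overlap for 8 genes (17%): Ccl25, Ccl3, Ccl4, Cx3cl1, Ccr7, Cxcr2 and Cxcl17 above vehicle and Ccr6 below, where 39.2% of all genes did not overlap. Both calls were lost without any 1 of the vehicle libraries and without combination 1 or combination 2. For Ccl25 the adjusted p (edgeR) was 0.0697 without combination 1 and 0.122 without combination 2. That of Ccl3 was also lost without combination 3 or any 1 anti-PD1 library. Calls over all genes, 1246 in the full fit, fell to 1 without any 1 vehicle library, 23 without combination 1 and 12 without combination 2. In the fits that lost Ccl3 but kept Ccl25 they numbered 851 to 1517. The log2 fold change of Ccl25 was 0.46 to 0.66 with 1 library left out.

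Against anti-PD1 alone, the combination had 1 call, Ccl25 (log2 fold change 0.70, SE 0.13, adjusted p = 0.0302), of 47 genes, where 1.92% of all genes were called (0.224% lower). Cxcl2 (log2 fold change 2.24, SE 0.64, adjusted p = 0.0966) and Ccr6 (log2 fold change -1.05, SE 0.29, adjusted p = 0.0857) came next. The Ccl25 call was lost when any 1 vehicle or anti-PD1 library, combination 1 or combination 2 was left out. Calls over all genes, 326 in the full fit, then numbered 45 to 89 without 1 vehicle library. They were 366, 0 and 0 without anti-PD1 1, 2 and 3, and 21 and 0 without combination 1 and 2. In this comparison 6 genes (12.8%) did not overlap between groups: Ccl25, Ccl3, Cxcl1, Cxcl2 and Cxcr2 were above and Ccr6 below, beside 22.1% of all genes. Regorafenib alone against vehicle gave no call among the 47, beside 0.00589% of all genes. By unadjusted p under 0.05, edgeR marked 6 of the 47 (12.8%, against 14.1% of all genes), all higher, among them Ccl25, Ccr7, Ccl4, Ccl24 and Ccl3. DESeq2 called 0 as well, beside 2.66% of all genes. Of the 47 log2 fold changes, 43 were positive (91.5%, against 51% of all genes), with a median of 0.85 against 0.0069 over all genes. Regorafenib 1 and regorafenib 2 were leukocyte-rich and no vehicle library was, and the part of this in the signs was not tested. Non-overlapping groups numbered 9 (19.1%, against 20.8% of all genes). These comparisons share the vehicle or the combination libraries, so their values are not independent of each other.

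No gene of the 47 was called for anti-PD1. Averaged over both backgrounds it gave 0 of 47 with edgeR, beside 0% of all genes. It also gave 0 with DESeq2 (8 of the 47 had an adjusted p there), beside 0.171% of all genes. By unadjusted p under 0.05 edgeR marked 2, beside 8.75% of all genes: Cx3cl1 (log2 fold change 0.34, SE 0.13, adjusted p = 0.558) and Cxcl3 (log2 fold change -1.18, SE 0.53, adjusted p = 0.567). The next higher genes were Ccl3 (0.45, adjusted p = 0.591) and Cxcl17 (1.44, adjusted p = 0.596), and the next lower were Ccl27a (-0.48, adjusted p = 0.591) and Cxcl5 (-0.64, adjusted p = 0.594). The median was -0.019, with 23 of 47 positive, and no gene separated the 6 libraries with the antibody from the 6 without (0.212% of all genes did). Anti-PD1 against vehicle gave 0 calls with either tool (0% of all genes with edgeR and 0.0295% with DESeq2). It gave 3 genes at unadjusted p under 0.05 in edgeR (Ccl24, Ccl22 and Ccl27a, 6.38%, against 5.17% of all genes). Groups did not overlap for 4 genes (8.51%, against 17% of all genes). Combination against regorafenib gave 0 calls with either tool (0% of all genes with edgeR and 0.0236% with DESeq2). Cx3cl1 alone had an unadjusted p under 0.05 there, as did 5.45% of all genes (log2 fold change 0.51, SE 0.18, adjusted p = 0.856), and Ccl25 alone did not overlap (2.13%, against 7.76% of all genes).

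The interaction asks whether the regorafenib difference depended on the antibody. No gene passed (edgeR 0 of 47, DESeq2 0 of 47, 0% of all genes, smallest adjusted p 0.99984 in edgeR). Values for 35 of 47 were negative (25.5% positive, against 49.1% of all genes), with a median of -0.67 against -0.0049 over all genes. By edgeR, 2 genes had an unadjusted p under 0.05 (4.26%, against 2.65% of all genes): Ccl24 (-4.94, SE 1.40) and Ccl22 (-1.17, SE 0.49). The leukocyte-rich libraries lie unevenly over the groups: regorafenib holds 2 of them, anti-PD1 and the combination 1 each, and vehicle 0.

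The comparisons were repeated on the 8 libraries of lower leukocyte level, a choice made after seeing the data. Regorafenib then has 1 library, whose spread is assumed to match the other groups. The 4 libraries left out are the ones in which 39 of the 47 genes were highest, and 2 of them are regorafenib libraries, so the median of the average regorafenib effect (0.0011, with 24 positive and 23 negative values) is lower than over 12 libraries by that choice and is given as a description. Calls numbered 5 of 47, beside 7.25% of all genes: Cxcl1 (log2 fold change 1.05, adjusted p = 0.0195, edgeR), Cxcl2 (1.81, 0.0459), Cx3cl1 (0.53, 0.0447) and Ccl25 (0.55, 0.0487) were higher and Ccr6 lower (-1.03, 0.0294). Ccl3 was not called there (log2 fold change 0.71, adjusted p = 0.132, edgeR). The combination against vehicle gave 6 calls, beside 17.8% of all genes. Cx3cl1 (0.79), Cxcl1 (0.91), Ccl25 (0.67) and Ccl3 (1.19) were higher, and Ccr6 (-0.85) and the monocyte attractant Ccl7 (-0.86) lower. Against anti-PD1 the 1 call was Cxcl1 (1.5% of all genes), and Ccl25 had an adjusted p of 0.0686. With the leukocyte level as a covariate over 12 libraries, the average regorafenib effect had 9 calls (20.2% of all genes), among them Ccl25, Ccl3, Ccl4, Cxcl2 and Cxcr2 higher, and Ccr6, Xcl1 and Xcr1 lower. Within the 8 libraries of lower leukocyte level, fibroblast markers lay at 4096 to 5230 CPM in all libraries with regorafenib. Without it they lay at 5732 CPM in anti-PD1 1, 28823 CPM in anti-PD1 2 and 22997 to 31237 CPM with vehicle. This split runs nearly along the drug, and its part in the calls was not tested.

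**Figure D3:**
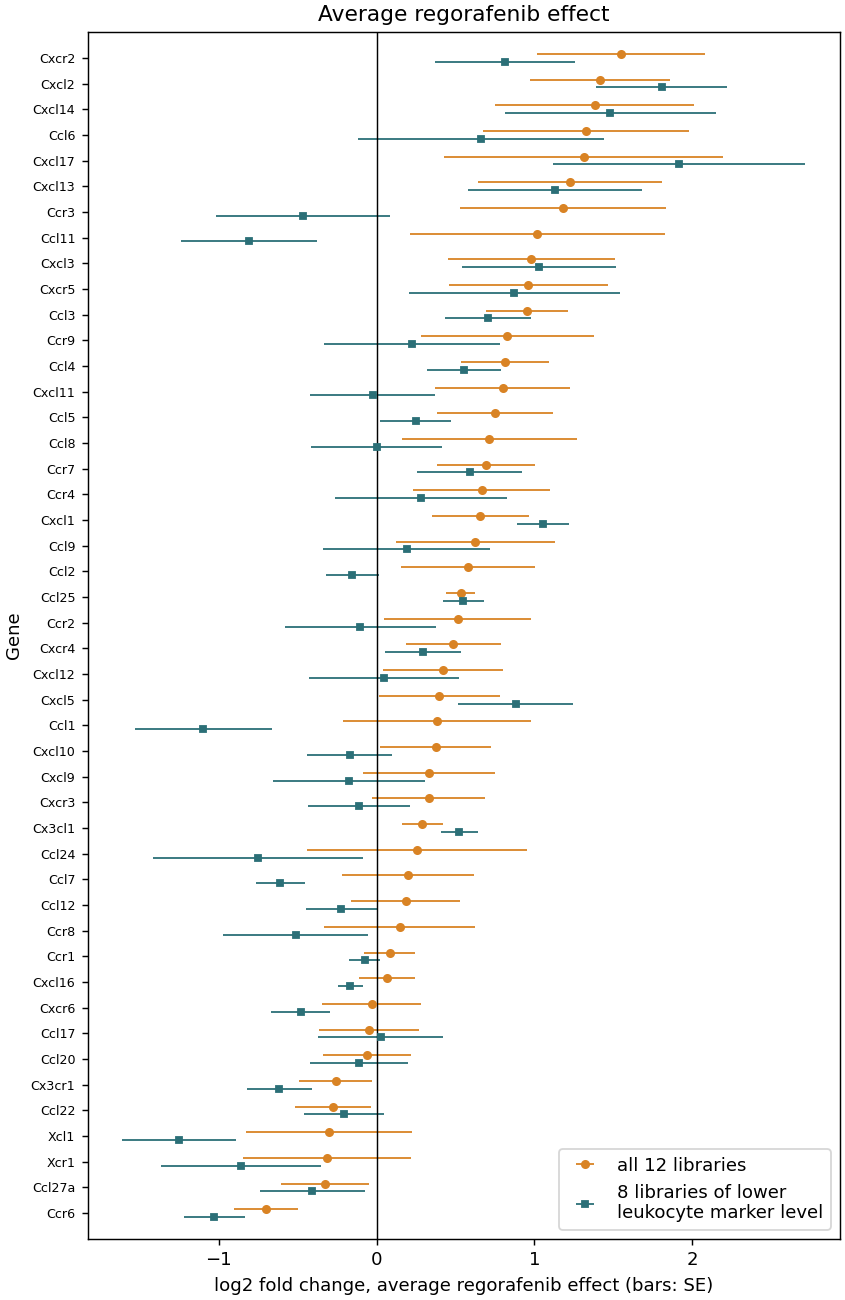
The average regorafenib effect of 46 of the 47 tested genes is drawn as log2 fold change with its SE, over 12 libraries (circles) and over the 8 libraries of lower leukocyte level (squares). Circles and squares of Ccl25, Cxcl2 and Ccr6 lie on the same side of 0.

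The CXCR3 axis, which serves T and NK cells, followed the leukocyte level. Cxcr3 measured 2.94, 2.58 and 3.09 CPM with vehicle, 3.31, 2.27 and 6.54 CPM with anti-PD1, 5.71, 5.41 and 2.14 CPM with regorafenib and 1.81, 4.49 and 6.12 CPM with the combination. Its most abundant ligand Cxcl10 measured 135, 134 and 79.9 CPM with vehicle, 97.7, 71.02 and 181 CPM with anti-PD1, 249, 179 and 81.6 CPM with regorafenib and 70.6, 118 and 215 CPM with the combination. The 4 leukocyte-rich libraries were the highest for both genes, and the groups overlapped. Cxcl9 (36.6 to 207 CPM) and Cxcl11 (16.2 to 105 CPM) followed the same libraries. Cxcl11 shares 1582 of its 3794 exonic bases with the pseudogene Gm2673 on the opposite strand, so its level is uncertain. No gene of the axis was called in any comparison, and the average regorafenib differences were 0.33 (SE 0.36) for Cxcr3 and 0.37 (SE 0.35) for Cxcl10. Summed T cell markers (9 of 9 tested, none at 0) ranged from 82.3 to 101 CPM with vehicle, 88.9 to 224 with anti-PD1, 82.3 to 222 with regorafenib and 71.5 to 224 with the combination. Their part in these levels was not tested.

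**Figure D4:**
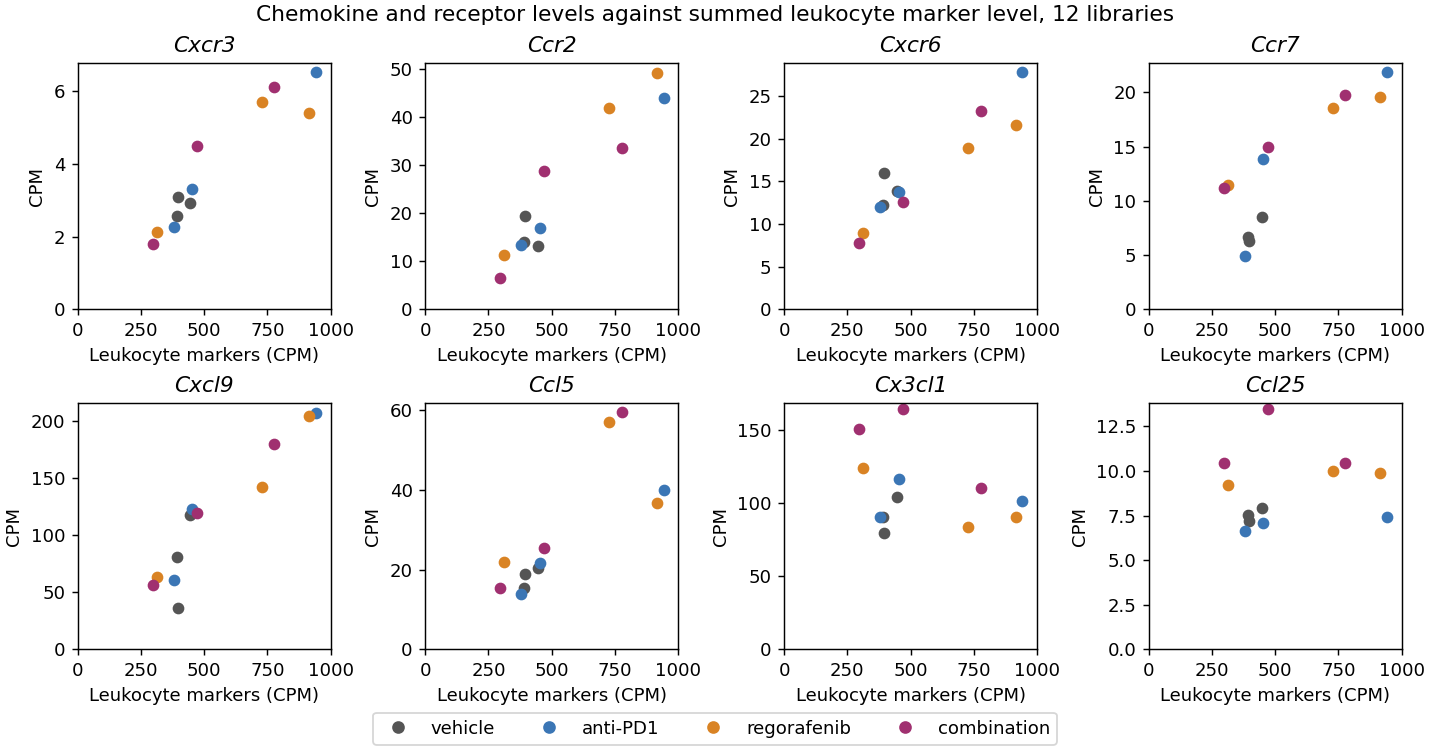
Each panel plots 1 gene (CPM) against the summed leukocyte markers (CPM) for the 12 libraries, coloured by group. Cxcr3, Ccr2, Cxcr6, Ccr7, Cxcl9 and Ccl5 are highest in the 4 libraries at 728 to 943 CPM, whereas Cx3cl1 and Ccl25 are highest in combination 2, at 471 CPM.

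The receptors Cxcr6 and Xcr1 were both highest in anti-PD1 3. Cxcr6, a receptor of resident T cells, measured 13.8, 12.2 and 15.97 CPM with vehicle, 13.8, 11.9 and 27.8 CPM with anti-PD1, 18.9, 21.5 and 8.97 CPM with regorafenib and 7.78, 12.6 and 23.2 CPM with the combination. Its only ligand here, the transmembrane Cxcl16, measured 180.03, 184 and 161 CPM with vehicle, 160.4, 154 and 246 CPM with anti-PD1, 223, 232 and 149 CPM with regorafenib and 138, 154 and 243 CPM with the combination and thus spanned less than a 2-fold range. Xcr1 marks cross-presenting dendritic cells, and its level was 6.54, 5.72 and 4.40 CPM with vehicle, 5.05, 4.72 and 18.7 CPM with anti-PD1, 7.27, 13.98 and 2.33 CPM with regorafenib and 1.10, 5.85 and 6.05 CPM with the combination. Xcl1, its ligand from NK and CD8 T cells, measured 6.38, 4.87 and 4.40 CPM with vehicle, 4.67, 5.07 and 14.6 CPM with anti-PD1, 5.33, 14.6 and 1.70 CPM with regorafenib and 1.33, 3.83 and 6.41 CPM with the combination. Both genes of this pair were highest in anti-PD1 3 and regorafenib 2 and lowest in combination 1 and regorafenib 3, so each group with regorafenib or the antibody overlapped vehicle. Cxcl16 shares 552 exonic bases with Zmynd15 on the opposite strand, and Xcl1 shares 98 of its 523 with Gm20743 on the opposite strand.

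Ccr2 and Ccr1, receptors of monocytes and macrophages, were highest in the 4 leukocyte-rich libraries. Ccr2 measured 13.2, 13.98 and 19.4 CPM with vehicle, 16.97, 13.4 and 44.03 CPM with anti-PD1, 41.9, 49.1 and 11.4 CPM with regorafenib and 6.45, 28.9 and 33.5 CPM with the combination, and its ligand Ccl2 measured 15.02, 11.6 and 11.7 CPM with vehicle, 8.87, 11.1 and 28.5 CPM with anti-PD1, 42.6, 34.9 and 10.9 CPM with regorafenib and 7.95, 10.8 and 28.2 CPM with the combination. Combination 1 was lowest for both. The other Ccr2 ligands, Ccl7 (5.39 to 34.2 CPM) and Ccl12 (2.65 to 10.1 CPM), were highest in regorafenib 1, as Ccl2 was. Ccr1 varied least of the 47, at 20.8, 17.3 and 17.8 CPM with vehicle, 18.3, 17.2 and 27.9 CPM with anti-PD1, 24.4, 22.3 and 16.5 CPM with regorafenib and 17.2, 18.6 and 27.2 CPM with the combination. Ccl5, a ligand of Ccr1, measured 20.3, 15.3 and 18.97 CPM with vehicle, 21.6, 13.8 and 39.98 CPM with anti-PD1, 56.96, 36.8 and 22.001 CPM with regorafenib and 15.4, 25.4 and 59.4 CPM with the combination. All 3 regorafenib libraries of Ccl5 were above vehicle, but the average difference was not called (log2 fold change 0.75, SE 0.37, adjusted p = 0.211). The Ccr1 ligands Ccl6 (1.33 to 30.02 CPM) and Ccl9 (1.81 to 18.6 CPM) ranged widely, with regorafenib 1 highest. Macrophage markers (8 of 8 tested, none at 0) summed to 555 to 704 CPM with vehicle, 562 to 1124 with anti-PD1, 470.3 to 1081 with regorafenib and 389.9 to 1093 with the combination, and their part was not tested.

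Ligands of the eosinophil axis spread widely within groups. Ccl11 (eotaxin) measured 52.9, 29.03 and 24.8 CPM with vehicle, 15.5, 35.4 and 152 CPM with anti-PD1, 196, 247 and 19.8 CPM with regorafenib and 19.4, 10.3 and 162 CPM with the combination: the 4 leukocyte-rich libraries were at 152 CPM or more and the other 8 at 52.9 CPM or less. Its receptor Ccr3 was scarce, at 0.126, 0.148 and 0.154 CPM with vehicle, 0.0849, 0.115 and 0.323 CPM with anti-PD1, 0.634, 0.791 and 0.0738 CPM with regorafenib and 0.133, 0.0696 and 0.616 CPM with the combination. Ccl24 (eotaxin-2) was low with vehicle (0.168, 0.0369 and 0.154 CPM) and reached 2.12 CPM in anti-PD1 3. All 3 anti-PD1 libraries (1.06, 0.346 and 2.12 CPM) exceeded vehicle, without passing the test (log2 fold change 3.27, SE 1.03, adjusted p = 0.865). Of 3 eosinophil markers, Epx ranged from 0 to 0.169 CPM and Prg2 from 0 to 0.254 CPM, both at or near 0. The third, Siglecf, was at 0.647 to 1.40 CPM in the 4 leukocyte-rich libraries and at 0.133 to 0.419 CPM in the other 8. The part of eosinophils in these levels was not tested. Ccl8, the most abundant ligand per kilobase and a Ccr8 ligand in mice, measured 39.5, 33.8 and 58.6 CPM with vehicle, 29.1, 25.8 and 119 CPM with anti-PD1, 177, 114 and 31.7 CPM with regorafenib and 17.01, 58.4 and 116 CPM with the combination. Ccr8, found on regulatory T cells, measured 1.30, 1.66 and 0.771 CPM with vehicle, 2.72, 0.998 and 4.74 CPM with anti-PD1, 2.03, 4.13 and 0.923 CPM with regorafenib and 0.795, 1.60 and 3.08 CPM with the combination. The other Ccr8 ligand, Ccl1, ranged over 0.369 to 5.32 CPM.

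Ccr4 and Ccr7 serve the traffic of T cells and dendritic cells. Ccr4 measured 0.168, 0.258 and 0.309 CPM with vehicle, 0.509, 0.192 and 0.754 CPM with anti-PD1, 0.803, 0.748 and 0.369 CPM with regorafenib and 0.133, 0.522 and 0.761 CPM with the combination. Its ligand Ccl22, a product of dendritic cells, measured 7.89, 8.52 and 7.60 CPM with vehicle, 13.8, 7.37 and 22.3 CPM with anti-PD1, 9.09, 12.004 and 8.67 CPM with regorafenib and 5.48, 9.05 and 9.35 CPM with the combination. Its other ligand Ccl17 ranged over 0.419 to 1.62 CPM. Ccl22 was higher with anti-PD1 than with vehicle in 2 of 3 libraries. Ccr7, which takes dendritic and naive T cells to lymph nodes, measured 8.47, 6.68 and 6.29 CPM with vehicle, 13.8, 4.91 and 21.8 CPM with anti-PD1, 18.6, 19.5 and 11.5 CPM with regorafenib and 11.2, 14.9 and 19.7 CPM with the combination. All 6 libraries with regorafenib were above the 3 with vehicle, but the average difference did not pass (log2 fold change 0.69, SE 0.31, adjusted p = 0.173, edgeR). The Ccr7 ligands Ccl19 and Ccl21 had no counts, but their near-identical copies share reads, so whether they were absent is uncertain. Ccr9, the receptor of Ccl25, measured 1.05, 1.88 and 1.85 CPM with vehicle, 1.27, 0.691 and 3.05 CPM with anti-PD1, 5.12, 3.74 and 1.62 CPM with regorafenib and 0.354, 2.19 and 4.71 CPM with the combination. Mean Ccr9 was 3.49 CPM in the regorafenib group and 2.42 CPM in the combination group, higher than in vehicle (1.59) and anti-PD1 (1.67). Its ligand was also higher in the groups given the drug. Unlike Ccl25, Ccr9 overlapped between libraries with and without the drug, and combination 1 was its lowest library. The average regorafenib difference of Ccr9 was not called (log2 fold change 0.83, SE 0.55). Ccr9 overlaps other annotated genes (1932 exonic bases with 1 on the opposite strand and 269 with 1 on its own), so its level is uncertain.

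Ccr6 and Ccl20 form a pair known for Th17 cells and skin dendritic cells. Ccr6 measured 2.56, 2.88 and 2.28 CPM with vehicle, 3.05, 2.96 and 3.52 CPM with anti-PD1, 1.73, 3.03 and 1.29 CPM with regorafenib and 1.46, 1.39 and 1.74 CPM with the combination. All 3 combination libraries were below all 6 libraries without regorafenib, while regorafenib 2 was not. Leaving out regorafenib 2 and the other leukocyte-rich libraries brought the call given above. Ccl20 measured 1.09, 1.73 and 1.27 CPM with vehicle, 0.764, 1.54 and 1.36 CPM with anti-PD1, 1.14, 1.36 and 1.81 CPM with regorafenib and 0.795, 0.696 and 1.70 CPM with the combination, with overlap between all groups. Ccl27a measured 1.85, 2.91 and 1.74 CPM with vehicle, 0.764, 1.15 and 1.40 CPM with anti-PD1, 1.56, 0.879 and 1.26 CPM with regorafenib and 1.24, 0.661 and 1.81 CPM with the combination, above the other groups in 2 of 3 vehicle libraries, and its receptor Ccr10 did not pass the filter.

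The ligands of CXCR2, the neutrophil receptor, include Cxcl1, Cxcl2 and Cxcl3, which lie on chromosome 5. Their promoters, from RefSeq's annotation of GRCm38.p6, are shown because these genes share a motif. Cxcl10 of the CXCR3 axis, which carries that motif too, is set beside them. The part of the motif in the levels of these genes was not tested. Each run is 180 bases, 220 to 41 bases before the start, 5′ to 3′ on the gene's strand.
Cxcl1, chr5:90891025-90891204, plus strand: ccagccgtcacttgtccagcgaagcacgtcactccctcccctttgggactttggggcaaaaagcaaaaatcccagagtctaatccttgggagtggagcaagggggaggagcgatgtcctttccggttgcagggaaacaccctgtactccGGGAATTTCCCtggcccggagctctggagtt
Cxcl2, chr5:90903679-90903858, plus strand: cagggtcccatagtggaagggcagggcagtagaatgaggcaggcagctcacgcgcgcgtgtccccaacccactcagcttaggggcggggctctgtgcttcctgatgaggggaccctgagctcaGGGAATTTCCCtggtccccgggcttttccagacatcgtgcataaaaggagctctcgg
Cxcl3, chr5:90785881-90786060, plus strand: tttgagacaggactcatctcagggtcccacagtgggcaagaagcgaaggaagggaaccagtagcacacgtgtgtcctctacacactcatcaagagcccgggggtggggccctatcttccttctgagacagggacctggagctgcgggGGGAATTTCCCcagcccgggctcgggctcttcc
Cxcl10, chr5:92348930-92349109, minus strand: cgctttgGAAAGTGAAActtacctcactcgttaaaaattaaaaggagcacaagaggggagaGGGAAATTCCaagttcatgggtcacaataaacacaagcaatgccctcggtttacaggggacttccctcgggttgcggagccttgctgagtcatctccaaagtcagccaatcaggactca
Capitals mark matches to an NF-kappaB motif (GGGA, any 2 bases, then TTCC) and in Cxcl10 also to an interferon response motif (GAAA, any 2 bases, then GAAA), which is the first of its 2 runs in capitals. Both were searched on both strands in the 250 bases before the start. In Cxcl1, Cxcl2 and Cxcl3 the forward and the reverse match overlap, shifted by 1 base, and their letters are the same in all 3 genes. The first motif was in 1.21% of 32851 such windows and in 6 of the 41 gene symbols with a window (Ccl1, Ccr3, Cxcl1, Cxcl2, Cxcl3 and Cxcl10). The second was in 2.98% of windows and in 3 of 41 (Ccl19, Cxcl10 and Cxcl14). The 41 symbols have 48 windows, so counts by symbol and shares by window are unlike measures and are not compared. A match is a description and not evidence of binding.

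Cxcl1 measured 11.2, 12.1 and 13.7 CPM with vehicle, 11.96, 7.41 and 9.27 CPM with anti-PD1, 17.7, 5.19 and 22.1 CPM with regorafenib and 24.9, 21.3 and 12.4 CPM with the combination. Every combination library exceeded every anti-PD1 library, and regorafenib 2 was the lowest of all. Cxcl2 measured 1.72, 1.07 and 0.540 CPM with vehicle, 0.382, 0.614 and 0.754 CPM with anti-PD1, 2.54, 0.484 and 1.96 CPM with regorafenib and 4.51, 2.47 and 1.45 CPM with the combination, again with the combination above anti-PD1 throughout and regorafenib 2 low. Cxcl3 measured 2.73, 1.77 and 1.47 CPM with vehicle, 0.0849, 0.768 and 1.29 CPM with anti-PD1, 5.84, 1.01 and 2.95 CPM with regorafenib and 1.15, 1.29 and 2.72 CPM with the combination, and its 3 anti-PD1 libraries were below vehicle. Cxcl5 measured 12.1, 7.97 and 4.28 CPM with vehicle, 2.16, 3.22 and 5.93 CPM with anti-PD1, 9.68, 2.64 and 10.9 CPM with regorafenib and 5.17, 8.39 and 6.99 CPM with the combination and overlapped between all groups. Cxcr2 itself measured 2.22, 0.959 and 0.887 CPM with vehicle, 0.382, 0.960 and 2.41 CPM with anti-PD1, 6.51, 3.56 and 0.960 CPM with regorafenib and 2.43, 3.41 and 6.16 CPM with the combination. The combination was above vehicle in every library, with a difference that did not pass (log2 fold change 1.57, SE 0.75, adjusted p = 0.203).

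Some neutrophil markers were higher in the average regorafenib effect. Of 7 tested, 7 had a positive difference and 2 were called by edgeR, beside 6.16% of all genes called higher, Clec4d (log2 fold change 1.90, SE 0.37, adjusted p = 0.0153) and Trem1 (log2 fold change 1.09, SE 0.27, adjusted p = 0.0322), both receptors of myeloid cells. DESeq2 called 5 of the 7 higher, beside 16.5% of all genes called in either direction. In the combination against vehicle edgeR called 1, Clec4d (log2 fold change 1.95, SE 0.51, adjusted p = 0.0460), beside 5.03% of all genes called higher. The summed marker list, which consists mostly of Mmp9, was 73.7 to 90.9 CPM with vehicle, 68.6 to 111 with anti-PD1, 96.03 to 103 with regorafenib and 91.9 to 298 with the combination. Ly6g, a defining marker, was at most 0.170 CPM. The part of neutrophils in the Cxcr2 and Cxcl levels was not tested.

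Cx3cl1 stood apart from the leukocyte-linked genes. It measured 104, 90.3 and 79.4 CPM with vehicle, 116, 90.5 and 101 CPM with anti-PD1, 83.6, 90.2 and 123 CPM with regorafenib and 151, 164 and 110.2 CPM with the combination. The 3 combination libraries were above all vehicle libraries, and anti-PD1 and regorafenib alone overlapped vehicle. Its receptor Cx3cr1, carried by monocytes and macrophages, measured 47.02, 37.3 and 44.97 CPM with vehicle, 27.5, 42.3 and 45.004 CPM with anti-PD1, 28.8, 45.1 and 23.4 CPM with regorafenib and 21.6, 32.6 and 52.2 CPM with the combination, with overlap between all groups and the lowest value in combination 1.

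Stromal and epithelial chemokines varied by library. Cxcl12, a stromal factor, measured 10.7, 9.04 and 14.6 CPM with vehicle, 9.42, 7.10 and 10.7 CPM with anti-PD1, 25.1, 9.37 and 10.5 CPM with regorafenib and 3.45, 15.5 and 18.3 CPM with the combination, and its receptor Cxcr4 measured 11.03, 7.93 and 8.18 CPM with vehicle, 10.1, 7.60 and 21.3 CPM with anti-PD1, 19.3, 18.5 and 10.9 CPM with regorafenib and 7.64, 14.2 and 20.8 CPM with the combination. Neither was called in any comparison. Cxcl13, which attracts B cells, measured 0.378, 0.885 and 0.540 CPM with vehicle, 0.679, 0.192 and 0.251 CPM with anti-PD1, 2.20, 0.220 and 0.849 CPM with regorafenib and 0.707, 2.19 and 0.471 CPM with the combination, and Cxcr5 measured 0.336, 0.184 and 0.0771 CPM with vehicle, 0.467, 0.0768 and 0.611 CPM with anti-PD1, 0.761, 0.352 and 0.406 CPM with regorafenib and 0.221, 0.626 and 0.869 CPM with the combination. Their mean levels of 0.693 and 0.125 RPKM were low. Cxcr5 shares 110 of its 3332 exonic bases with Bcl9l on the opposite strand, so its low level is uncertain. Cxcl17, a mucosal chemokine, measured 1.26, 0.848 and 0.540 CPM with vehicle, 10.4, 1.15 and 0.395 CPM with anti-PD1, 0.930, 1.14 and 8.64 CPM with regorafenib and 2.87, 13.6 and 1.41 CPM with the combination. In each treated group 1 library was well above the other 2. Cxcl14, made by epithelium and fibroblasts, ranged over 1.76 to 30.8 CPM, with 30.8 and 2.90 CPM in 2 libraries of the same regorafenib group.

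Ligands were paired with receptors from textbook knowledge in 38 pairs, of which 33 had both genes tested. Over 12 libraries 32 of the 33 Pearson correlations of log2 CPM were positive and 21 passed a permutation test (100000 permutations, Benjamini-Hochberg over 33 pairs). These pooled values span the 2 sets of libraries by leukocyte level, so the correlations were also computed within the 8 libraries of lower level. After group means were removed from the 12 libraries, 31 of 33 were positive, with a median r of 0.741. This step leaves the leukocyte level in place, because that level differs within groups. Ligands and receptors outside the listed pairs were not correlated, so no background stands beside these counts. Within the 8 libraries the correlations ranged from -0.712 to 0.944 (median 0.568), 28 were positive, 6 had an unadjusted p under 0.05 and 4 passed.

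By the exact permutation test over the 8 libraries, two-sided, the pairs that passed included Ccr4 with Ccl22 (r = 0.807, rho = 0.857) and Xcr1 with Xcl1 (r = 0.944, rho = 0.691). Unadjusted exact p-values were 0.00491 and 0.00397 in that order, and the adjusted p was 0.0430 for each. For rho the exact p-values were 0.0107 and 0.0694, and none of the 33 pairs passed after adjustment. Without the 2 libraries farthest from the median of the ligand, r was 0.749 for Ccr4 and Ccl22. For Xcr1 and Xcl1 it was 0.400, so that relation rests on 2 libraries. Cxcr2 with Cxcl2 did not pass (r = 0.832, exact p = 0.00900, adjusted p = 0.0594). Cx3cr1 with Cx3cl1 had the most negative value (r = -0.712, exact p = 0.0552, adjusted p = 0.197). All pairs share the same libraries, so their correlations are not independent.

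**Figure D5:**
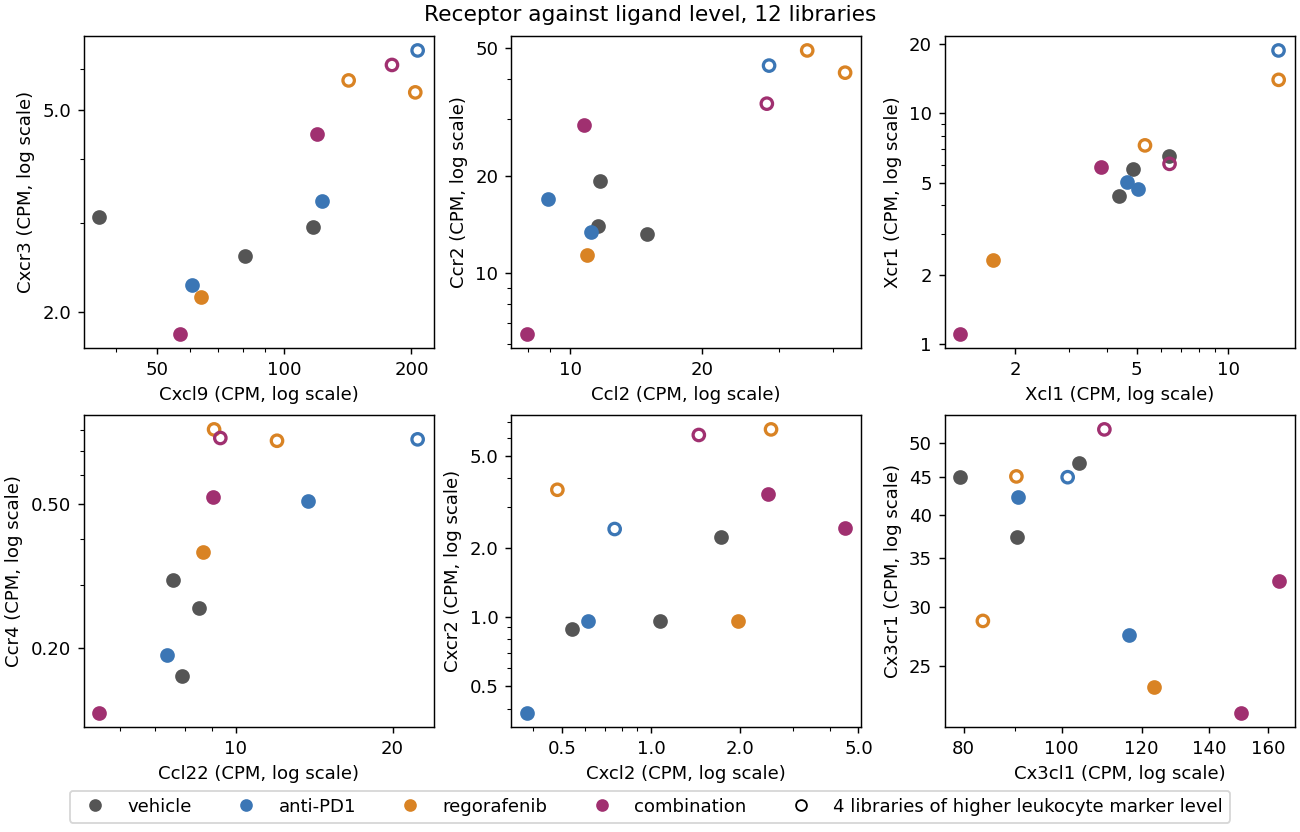
Receptor level is plotted against ligand level (CPM, log scales) for 6 pairs, with colour for group and open circles for the 4 leukocyte-rich libraries. Filled circles rise together for Ccr4 with Ccl22 (r = 0.807) and run the opposite way for Cx3cr1 with Cx3cl1 (r = -0.712).

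Genes around the pathway were read against the 9.49% of all genes that edgeR called in the average regorafenib effect and the 16.5% that DESeq2 called. Of 8 tested atypical receptors and regulators, which scavenge or modify chemokines, 1 was called by edgeR: Ackr4, the scavenger of Ccl19, Ccl21 and Ccl25, fell (log2 fold change -0.73, SE 0.19, adjusted p = 0.0376). DESeq2 called 1 of the 8 higher and 1 lower. Of 26 signalling genes downstream of the receptors edgeR called none, with 1 higher and 3 lower at unadjusted p under 0.05, whereas 3 were called lower, and 0 higher, by DESeq2. Of 22 upstream cytokines and factors 1 was called higher, Il17ra, a subunit of the IL-17 receptor (log2 fold change 0.36, SE 0.078, adjusted p = 0.0216). The inducers Il1a (log2 fold change 0.87, SE 0.25, adjusted p = 0.0507) and Csf3 (log2 fold change 2.23, SE 0.66, adjusted p = 0.0585) were short of the threshold. DESeq2 called 5 of these 22 higher and none lower.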

How the data were processed

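RNA was measured in 12 tumour samples, 3 per group, from libraries of polyadenylated RNA made with a stranded kit. The authors deposited 1 table of whole-number read counts by Ensembl identifier; per the submitters' processing notes reads were handled with cutadapt 2.4 and STAR 2.7.2a against GRCm38. Which tool counted the reads, with which annotation and whether by strand, is not given in the sources used here. GRCm38 is a C57BL/6J genome and the mice were C3H/HeN, and what this does to the counts was not tested. GENCODE M21 gave symbols, positions and exonic lengths for 55227 of 55487 identifiers.

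Genes with too few counts were removed (filterByExpr, minimum count 10, minimum total 15), which left 16974 genes with 99.91% to 99.94% of counts. They were tested with edgeR 4.0.16 in R 4.3.3 (robust quasi-likelihood F tests, two-sided, TMM factors) in 1 fit of 4 group means with 8 residual degrees of freedom and a common biological coefficient of variation of 0.227. Benjamini-Hochberg adjustment covered all genes tested in a comparison (8 in all), with a threshold of 0.05. An average effect is the mean of a drug's log2 fold changes with and without the other drug. CPM use TMM factors, and log2 CPM a prior count of 2. RPKM is mean CPM per exonic kilobase.

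The genes, marker lists and pathway lists were chosen with earlier results of these data known. Values in every library are given for genes past the threshold, for the 3 of smallest p in each direction in the average effects and in combination against vehicle, for the 2 ligands and 2 receptors of highest RPKM, and for each receptor with its most abundant ligand; Ccr7, Ccl24 in part and Cxcr2 were added after their values were seen. For 1 gene under these rules, values are not reported here. Alternatives were DESeq2 1.42.0, RLE factors, no filter, the replicate number as a block and each library left out; 2 settings on the leukocyte level were added after seeing the data. The test scripts were tested on simulated data. Same-numbered libraries of different groups did not deviate together, so the numbers were not used as pairs.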

Additional observations from a re-analysis of the deposited data

How the results depend on the processing

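In the 3 comparisons with calls, 13 of 54 alternative numbers of calls stayed within 1.5 times the original and 41 moved; of the fold changes of called genes, 49 kept their call, 41 lost it and none changed direction. Combination against vehicle (2 calls, beside 7.34% of all genes) gave 4 with DESeq2 (adding Ccl4 and Cx3cl1), beside 15.4%. It gave 0 with no filter on low counts (663 of 32550 genes) and 8 with the leukocyte level as covariate (20.8%). When 1 library was left out it gave 0 to 3, beside 1 to 1517 genes called in all. Calls in the 8 libraries of lower leukocyte level are given above. Combination against anti-PD1 (1 call, beside 1.92% of all genes) gave 3 with DESeq2 (adding Cxcl2 higher and Ccr6 lower), beside 7.37%. It gave 0 with no filter (221 of 32550 genes) and 3 with the covariate (6.06%). When 1 library was left out it gave 0 to 2, beside 0 to 432 genes called in all, with 2 without regorafenib 2 (261 genes). The average regorafenib effect (2 calls, beside 9.49% of all genes) gave 6 with DESeq2 (adding Cxcl2, Cxcr2 and Ccl4 higher and Ccr6 lower), beside 16.5%. It gave 1 with no filter (959 of 32550 genes) and 9 with the covariate (20.2%). When 1 library was left out it gave 1 to 5, beside 460 to 2048 genes called in all, with 5 without regorafenib 2 (1778 genes). The cause of these changes was not tested. Ccl25 was called for the average regorafenib effect under every setting run, at log2 fold changes of 0.47 to 0.57 with 1 library left out. RLE factors changed no call, and moved the number of positive values by at most 1 of 47. The other 5 comparisons gave 0 calls under every setting. Correlated pairs numbered 4 in the 8 libraries and 17 to 21 of 33 when 1 library was left out. With the replicate number as a block, the calls were 0, 0 and 1 in the 3 comparisons in the order above, beside 11, 0 and 504 genes called in all. Same-numbered libraries correlated at -0.657 to 0.630 in their deviations from group means, above 0.1 in 2 of 18 pairs. Of the 12 libraries, 2 correlated best with their own number, so the numbers do not pair the samples. With 3 libraries a group, and 1 to 3 without the leukocyte-rich libraries, spread within groups limits what can be called. Counts of Ccr3, Ccr4, Cxcr5 and Ccl24, under 1 CPM in most libraries, rest on few reads.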
